A study of Homo sapiens with 6 samples.

Results

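The genes described here are a list of 45 named genes of glucose breakdown and of the response to low oxygen. A gene was followed through the array features, called probe sets, whose annotation gives its symbol and no other. Of the 45 genes, 42 had such a probe set, 96 probe sets in all, out of 19775 genes and 54613 probe sets in the table. SLC16A1 and SLC16A3, the lactate carriers, and CA9, a carbonic anhydrase, were not analysed here, and 2 probe sets shared by SLC2A3 and its near copy SLC2A14 were left out. The 42 genes fall into 24 of glycolysis and 18 of the hypoxia response.

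Both groups of samples are of LP-1, an established human multiple myeloma line. LP-1/Cfz cells are a derivative resistant to 12 nM carfilzomib, an irreversible inhibitor of the proteasome, and RNA was taken after 1 week of growth with no drug in the medium. Parental LP-1 cells, never selected in carfilzomib, were grown beside them, and both were kept in RPMI medium with GlutaMAX and, per the labels, 4% fetal bovine serum. Each group has 3 samples with 1 Affymetrix U133 Plus 2.0 array each, and all LP-1/Cfz samples come from 1 resistant line, so that resistance and any other difference between these 2 lines cannot be told apart.

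Glycolysis turns glucose into pyruvate in the cytosol, and lactate dehydrogenase turns pyruvate into lactate when it is not passed to the mitochondria. Hypoxia-inducible factors (HIFs) are transcription factors whose alpha subunits are hydroxylated by prolyl hydroxylases when oxygen is present, bound by the VHL protein and broken down by the proteasome. When the alpha subunits persist they pair with ARNT, bind a short DNA core in the promoters and enhancers of their targets, and raise most glycolytic enzymes together with genes of blood vessel growth, collagen modification and feedback on the pathway itself. Myeloma cells grow in bone marrow, a tissue poor in oxygen, where this response has often been studied.

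The deposited values are on the log2 scale and relative to a reference value for each probe set, which the sources used here do not state. Differences between arrays can therefore be read, but neither the level of a gene nor an order of levels between genes. One array stood apart: LP-1/Cfz replicate 3 had an interquartile range of 0.338 over probe sets, where the remaining 5 arrays ran between 0.230 and 0.264, and it received a weight of 0.389 from limma. Of 10 plasma cell markers 4 rose and 1, CD38, fell, and the mean of the list ran between 0.27 and 0.32 in LP-1/Cfz and between 0.22 and 0.25 in LP-1. Of the markers of other cells, 2 of 9 for T and NK cells, 0 of 9 for myeloid cells and 1 of 10 for stromal cells changed, and the ranges of all 3 of these list means overlapped between the groups. Their part in the results was not tested, and because the values keep no level, the presence of plasma cell markers could not be checked as such.

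The words rose and fell are used for genes to which limma gave an adjusted p under 0.05 for LP-1/Cfz minus LP-1, with Benjamini-Hochberg adjustment over all 19775 genes on the mean of each gene's probe sets. By this test 15 of the 42 genes rose, 3 fell and 24 did not pass. Among all genes, 16.7% passed, with 6.72% higher and 10% lower, while among these genes 42.9% passed, with 35.7% higher and 7.14% lower. The median log2 fold change was 0.22 over the 42 genes and 0.02 over all genes, and 35 of the 42 changes were above 0. In 25 of the 42 genes all LP-1/Cfz arrays lay above all LP-1 arrays, in 6 they lay below, and in 11 the groups overlapped. Groups that do not overlap made up 35.9% of all genes, 16.6% higher and 19.3% lower in LP-1/Cfz. A larger share of these genes was thus higher in LP-1/Cfz than among all genes, with changes that mostly stayed below 0.70 on the log2 scale. All genes may include many that these cells do not express, since no filter on level was possible. The list was also chosen with earlier results of these data known, so the contrast is a description and not a test. In bulk RNA, fewer cells with a transcript and less of it in each cell cannot be told apart.

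**Figure D1:**
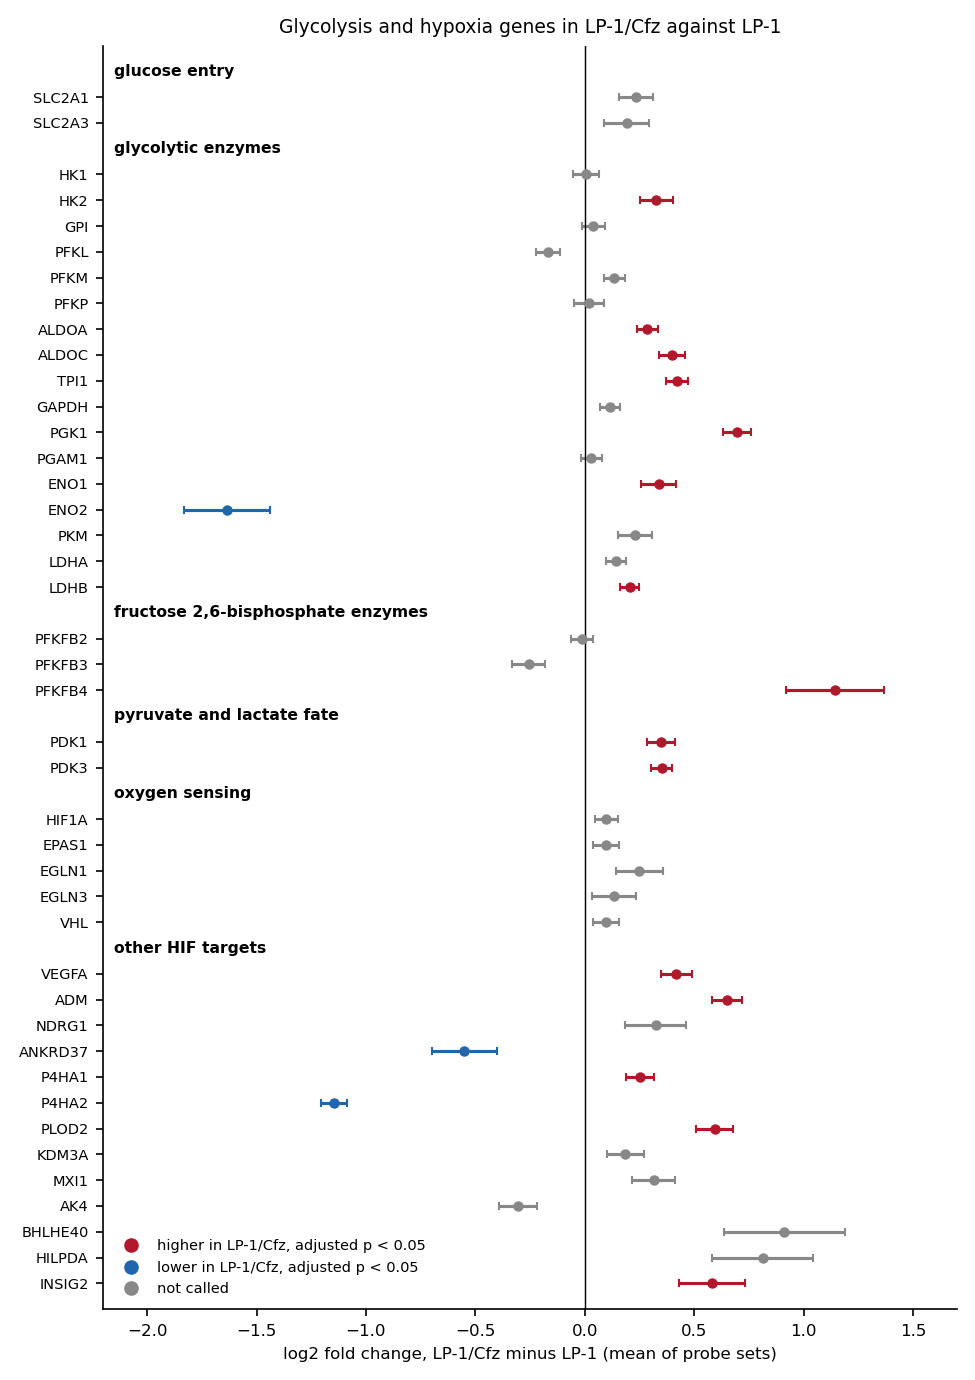
Log2 fold change of LP-1/Cfz minus LP-1 for each of the 42 measured genes, grouped by role, with the standard error from limma as bars. Red points rose, blue points fell and grey points did not pass at an adjusted p under 0.05; most points lie right of 0, and ENO2, P4HA2 and ANKRD37 are the 3 blue points left of it.

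Promoters of the 4 genes with the largest rises among those that passed, and of the 3 that fell, are shown because HIFs act through a short core there. Each sequence is the 250 bases before the RefSeq start of the gene on the human assembly GRCh38.p14, read on the strand of the gene. Capitals mark each ACGTG or GCGTG, or CACGT or CACGC where the core reads on the opposite strand. PFKFB4 is read from chr3:48556804-48557053 on the minus strand, PGK1 from chrX:78103998-78104247 on the plus strand, ADM from chr11:10304823-10305072 on the plus strand and PLOD2 from chr3:146161185-146161434 on the minus strand. Of the genes that fell, ENO2 is read from chr12:6914330-6914579 on the plus strand, P4HA2 from chr5:132227092-132227341 on the minus strand and ANKRD37 from chr4:185396591-185396840 on the plus strand.
PFKFB4: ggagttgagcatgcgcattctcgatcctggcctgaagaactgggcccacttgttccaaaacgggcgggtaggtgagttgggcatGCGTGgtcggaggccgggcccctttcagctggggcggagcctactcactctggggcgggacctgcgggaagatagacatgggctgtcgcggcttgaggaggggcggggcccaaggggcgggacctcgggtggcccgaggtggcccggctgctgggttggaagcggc
PGK1: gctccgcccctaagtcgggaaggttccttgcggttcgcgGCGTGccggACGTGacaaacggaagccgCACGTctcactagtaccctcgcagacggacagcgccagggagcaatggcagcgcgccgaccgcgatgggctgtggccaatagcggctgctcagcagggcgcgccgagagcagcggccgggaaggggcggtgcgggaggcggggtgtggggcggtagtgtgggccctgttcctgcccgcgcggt
ADM: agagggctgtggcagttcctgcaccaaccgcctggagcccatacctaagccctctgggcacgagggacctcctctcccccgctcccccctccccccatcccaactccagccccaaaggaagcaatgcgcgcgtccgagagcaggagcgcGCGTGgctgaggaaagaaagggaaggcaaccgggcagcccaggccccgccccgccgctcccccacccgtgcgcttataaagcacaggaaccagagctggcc
PLOD2: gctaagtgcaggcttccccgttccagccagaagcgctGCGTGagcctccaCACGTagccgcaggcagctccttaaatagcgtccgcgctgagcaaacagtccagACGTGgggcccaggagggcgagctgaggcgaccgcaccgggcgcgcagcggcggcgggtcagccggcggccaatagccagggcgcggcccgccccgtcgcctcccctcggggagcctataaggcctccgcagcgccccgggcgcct
ENO2: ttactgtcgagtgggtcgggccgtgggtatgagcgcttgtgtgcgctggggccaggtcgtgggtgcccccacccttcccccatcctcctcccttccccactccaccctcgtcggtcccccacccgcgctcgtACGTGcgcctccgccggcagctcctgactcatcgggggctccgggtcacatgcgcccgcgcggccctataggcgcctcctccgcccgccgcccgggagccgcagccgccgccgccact
P4HA2: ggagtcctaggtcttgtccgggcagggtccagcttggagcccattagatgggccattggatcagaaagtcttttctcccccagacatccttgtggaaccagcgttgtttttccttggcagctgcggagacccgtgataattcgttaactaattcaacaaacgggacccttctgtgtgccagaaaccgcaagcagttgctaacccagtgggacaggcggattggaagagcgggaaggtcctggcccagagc
ANKRD37: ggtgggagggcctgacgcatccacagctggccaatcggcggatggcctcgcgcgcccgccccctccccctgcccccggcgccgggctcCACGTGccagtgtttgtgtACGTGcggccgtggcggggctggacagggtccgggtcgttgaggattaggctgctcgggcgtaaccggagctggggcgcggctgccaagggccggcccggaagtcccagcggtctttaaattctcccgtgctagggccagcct
The core stood once in the PFKFB4 window, 166 bases before the start, and once in that of ADM, 101 bases before it. PGK1 had 3 within 211 to 183 bases before the start, and PLOD2 had 3 as well, between 213 and 146. Among the genes that fell, ENO2 had 1 at 118 bases, P4HA2 had 0, and ANKRD37 had 3, of which 2 are the same CACGTG read on both strands. All 4 windows shown of genes that rose held the core, and so did 2 of the 3 of genes that fell. Of the 42 measured genes 36 had a window, and 30 of these 36, or 83.3%, held the core, against 43.2% of all 35116 windows and 47.4% of all 27305 genes with a window. By outcome it stood in 13 of 14 genes that rose, in 2 of 3 that fell and in 15 of 19 that did not pass. The list was drawn up from genes of glycolysis and targets of HIF, so its higher share is not an independent result. A match of these letters is a description of the sequence and not evidence that a factor binds there.

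PFKFB4, which makes and removes fructose 2,6-bisphosphate, the activator of phosphofructokinase, had the largest rise of the 42 genes. Its mean log2 value was 1.10, 1.16 and 0.86 in the LP-1/Cfz arrays, against -0.01, -0.64 and 0.36 in the LP-1 arrays. The LP-1/Cfz arrays lay close together, while the LP-1 arrays were spread more widely with replicate 2 at the bottom. The log2 fold change was 1.14, or 2.21-fold (standard error, SE, 0.224; adjusted p = 0.0112). Without LP-1 replicate 2 it was 0.87 (adjusted p = 0.00941). Both of its probe sets passed the test over all probe sets, 228499_at with 1.65 (SE 0.323, adjusted p = 0.0153) and 206246_at with 0.63 (SE 0.151, adjusted p = 0.0357). On 228499_at the values were 1.39, 1.72 and 1.35 in LP-1/Cfz and 0.01, -0.99 and 0.48 in LP-1. The call of 206246_at was lost without LP-1/Cfz replicate 1 or 2 or LP-1 replicate 1 or 2, at adjusted p between 0.0778 and 0.107. Its relatives did not follow: PFKFB3, an enzyme of the same reaction, had a log2 fold change of -0.26 (adjusted p = 0.0599) with all LP-1/Cfz arrays below all LP-1 arrays (-0.32 and adjusted p = 0.0423 without LP-1 replicate 2), and PFKFB2 had -0.01 (adjusted p = 0.91).

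PGK1, phosphoglycerate kinase, which makes the first ATP gained in glycolysis, had the next largest rise among the genes that passed. Its values were 0.20, 0.31 and 0.17 in LP-1/Cfz, against -0.43, -0.57 and -0.41 in LP-1, so that the groups were far apart and each was tight. The log2 fold change was 0.70, or 1.62-fold (SE 0.0644, adjusted p = 0.000325). Of its 6 probe sets 5 rose, by 0.47 to 1.24, and the sixth, 217383_at, gave 0.22 (adjusted p = 0.178) with overlapping groups. The smallest adjusted p among them belonged to 227068_at, with 0.88 (SE 0.0606, adjusted p = 0.000112), while 1558365_at had the largest change, 1.24 (SE 0.149, adjusted p = 0.00171). On 1558365_at the LP-1/Cfz arrays read 0.47, 0.71 and 0.33 and the LP-1 arrays -0.61, -1.05 and -0.55. PGK1 lies on the X chromosome, where 163 of 696 genes, or 23.4%, rose and 5.89% fell. Of the 20 measured genes nearest to it 9 rose and 1 fell, with a median log2 fold change of 0.20, and the part of this neighbourhood in the rise of PGK1 was not tested.

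**Figure D2:**
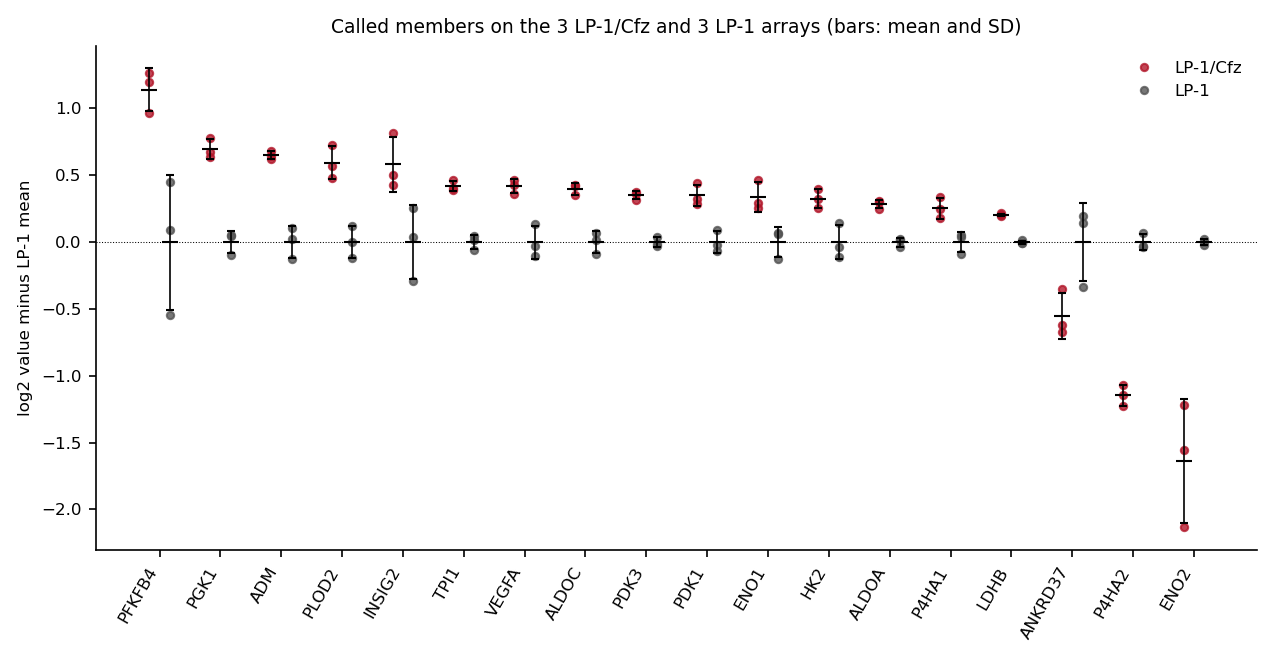
Log2 value of each of the 18 genes that passed, set relative to its LP-1 mean, with 1 point for each array, LP-1/Cfz (red) left of LP-1 (grey), and bars for the group mean and SD (n = 3 each). The order runs by log2 fold change, PFKFB4 (1.14) at the left end and ENO2 (-1.64) at the right, and the widest spread within a group is that of the LP-1 arrays for PFKFB4 and of the LP-1/Cfz arrays for ENO2.

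The remaining glycolytic enzymes were considered in the order of the pathway. At glucose entry, SLC2A1, the main glucose carrier of most cells, gave 0.23 (adjusted p = 0.0804) with no overlap of the groups, and SLC2A3, a high-affinity glucose carrier, gave 0.19 (adjusted p = 0.263). Neither carrier passed, although SLC2A3 did without LP-1/Cfz replicate 2, at 0.31 (adjusted p = 0.0252). HK2, the hexokinase that rises in many tumours, was at 0.79, 0.86 and 0.72 in LP-1/Cfz, against 0.36, 0.43 and 0.61 in LP-1, a log2 fold change of 0.33 (SE 0.0755, adjusted p = 0.0228). Of its 3 probe sets only 239410_at passed, at 0.36 (adjusted p = 0.0327). That call was lost in 4 of the 6 fits with 1 array left out. The others gave 0.31 each, 222305_at with adjusted p = 0.0626 and 202934_at with adjusted p = 0.174 and overlapping groups. HK1, the hexokinase of most tissues, gave 0.01 (adjusted p = 0.968), so that the hexokinases differed in outcome, although the difference between them was not tested. The next enzymes, GPI and the phosphofructokinase subunits PFKL, PFKM and PFKP, gave 0.04, -0.17, 0.13 and 0.02 with adjusted p between 0.0768 and 0.884. None of these 4 genes passed. PFKL lay lower and PFKM higher on every LP-1/Cfz array than on any LP-1 array.

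The aldolases split fructose 1,6-bisphosphate into triose phosphates, which TPI1 interconverts, and all 3 of these genes rose. ALDOA was at 0.45, 0.50 and 0.50 in LP-1/Cfz and 0.22, 0.16 and 0.21 in LP-1 (log2 fold change 0.28, SE 0.0479, adjusted p = 0.00571). ALDOC was at 1.05, 1.04 and 0.98 in LP-1/Cfz and 0.64, 0.54 and 0.70 in LP-1 (log2 fold change 0.40, SE 0.0578, adjusted p = 0.00289). TPI1 was at -0.07, -0.01 and -0.08 in LP-1/Cfz and -0.46, -0.53 and -0.43 in LP-1 (log2 fold change 0.42, SE 0.0516, adjusted p = 0.00132). In each of these genes the groups were clear of each other by more than the spread within either. All 3 probe sets of TPI1 rose, by 0.39 to 0.48, while for ALDOA only 238996_x_at passed, at 0.48 (adjusted p = 0.00353), and the other two gave 0.19 and 0.18. GAPDH, which oxidises the triose phosphate and often serves as a loading control, gave 0.12 (adjusted p = 0.125), with 0.07, 0.07 and 0.06 in LP-1/Cfz and -0.04, -0.06 and -0.05 in LP-1. Its groups did not overlap, but the change was small and did not pass. PGAM1, the mutase that follows PGK1, gave 0.03 (adjusted p = 0.724).

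The enolases, which make phosphoenolpyruvate, moved in opposite directions. ENO2, the isoform known from neurons, had the largest fall of the 42 genes, with -2.13, -1.55 and -1.21 in LP-1/Cfz, against -0.02, 0.01 and 0.03 in LP-1. The LP-1 arrays were nearly equal, whereas LP-1/Cfz ranged widely with all values far below them. The log2 fold change was -1.64, a level 3.11-fold higher in LP-1 (SE 0.197, adjusted p = 0.0012), from 1 probe set. ENO1, the isoform of most cells, was at 0.49, 0.67 and 0.45 in LP-1/Cfz and 0.26, 0.07 and 0.27 in LP-1, a log2 fold change of 0.34 (SE 0.0792, adjusted p = 0.0242). That rise came mainly from 240258_at, at 1.02 (SE 0.202, adjusted p = 0.0162), since the other 3 probe sets of ENO1 gave 0.01 to 0.17 and did not pass. With the median of the probe sets in place of their mean, ENO1 gave 0.13 (adjusted p = 0.142). ENO3, the muscle isoform and not among the 45 genes, rose by 0.39 (SE 0.0504, adjusted p = 0.00168).

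At the end of the pathway stand PKM, pyruvate kinase, and the lactate dehydrogenase subunits LDHA and LDHB. PKM gave 0.23 (adjusted p = 0.081) and LDHA 0.14 (adjusted p = 0.0776), both with every LP-1/Cfz array above every LP-1 array. LDHB rose by 0.20 (SE 0.0444, adjusted p = 0.0176), with 0.08, 0.09 and 0.07 in LP-1/Cfz and -0.11, -0.13 and -0.13 in LP-1. This was the smallest change among the 18 genes that passed, and the replicates of both groups were very close. Of the probe sets of LDHB, 201030_x_at passed at 0.23 (adjusted p = 0.0375), while 213564_x_at gave 0.18 (adjusted p = 0.0891). The call of 201030_x_at was lost whichever array was left out. Of the 17 glycolytic enzymes in all, 7 rose and 1 fell, with a median log2 fold change of 0.14. These are 41.2% and 5.88%, against 6.72% higher and 10% lower among all genes.

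PDK1 and PDK3 are kinases that switch off pyruvate dehydrogenase and so hold pyruvate back from the mitochondria, and both rose. PDK1 was at 0.14, 0.26 and 0.11 in LP-1/Cfz and -0.20, -0.25 and -0.09 in LP-1, a log2 fold change of 0.35 (SE 0.0643, adjusted p = 0.00848), with 2 of 3 probe sets passing. PDK3 was at 0.18, 0.24 and 0.22 in LP-1/Cfz and -0.15, -0.17 and -0.10 in LP-1, a log2 fold change of 0.35 (SE 0.0482, adjusted p = 0.00217). Of the 5 probe sets of PDK3, 4 rose, by 0.29 to 0.53. The genes therefore shared both size and direction. PDK3 lies on the X chromosome too. The median of its 20 nearest measured genes was 0.00, with 1 higher and 2 lower, and the part of the chromosome in the rise of PDK3 was not tested.

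Among the 18 genes of the hypoxia response, 5 rose and 2 fell, with a median log2 fold change of 0.25. These are 27.8% and 11.1%, against 6.72% higher and 10% lower among all genes. None of the 5 genes of oxygen sensing passed. HIF1A and EPAS1, which encode the oxygen-sensitive alpha subunits HIF-1 alpha and HIF-2 alpha, gave 0.10 (adjusted p = 0.248) and 0.10 (adjusted p = 0.327). The prolyl hydroxylases EGLN1 and EGLN3, themselves raised by HIF in many cells, gave 0.25 (adjusted p = 0.17) and 0.13 (adjusted p = 0.437), and VHL gave 0.10 (adjusted p = 0.34). RNA of the alpha subunits says little of HIF activity, which is set largely by the breakdown of the proteins, and protein was not measured on these arrays. The other HIF targets held all 7 hypoxia genes that passed.

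ADM, the vessel-dilating peptide adrenomedullin, had the smallest adjusted p of the hypoxia genes that rose. Its values were 3.41, 3.45 and 3.39 in LP-1/Cfz, against 2.78, 2.64 and 2.87 in LP-1, so that the LP-1/Cfz arrays were nearly equal and lay above all LP-1 arrays. The log2 fold change was 0.65 (SE 0.0669, adjusted p = 0.000562) on 1 probe set. VEGFA, the vessel growth factor, was at 0.61, 0.65 and 0.55 in LP-1/Cfz and 0.15, 0.08 and 0.32 in LP-1, a log2 fold change of 0.42 (SE 0.0709, adjusted p = 0.00592). All 4 probe sets of VEGFA rose, by 0.37 to 0.46. The secreted vessel factors of the list thus both rose, with no overlap of the groups.

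Enzymes that modify collagen took both directions. PLOD2, a lysyl hydroxylase, was at 0.13, 0.29 and 0.04 in LP-1/Cfz and -0.44, -0.56 and -0.32 in LP-1, a log2 fold change of 0.59 (SE 0.0838, adjusted p = 0.00251), and both of its probe sets passed. P4HA1, a catalytic subunit of collagen prolyl hydroxylase, was at 0.43, 0.52 and 0.36 in LP-1/Cfz and 0.22, 0.09 and 0.23 in LP-1, a log2 fold change of 0.25 (SE 0.0633, adjusted p = 0.0311). Its probe sets did not give the same picture, with 0.57 on 207543_s_at (adjusted p = 0.00748) and -0.07 on 243335_at (adjusted p = 0.614). P4HA2, the alternative catalytic subunit of the same enzyme, fell instead. It was at 0.71, 0.86 and 0.79 in LP-1/Cfz, against 2.0, 1.89 and 1.90 in LP-1, a log2 fold change of -1.15 (SE 0.0601, adjusted p = 1.94e-05), the smallest adjusted p of the 42 genes. Within P4HA2, 1568611_at fell by 1.97 (adjusted p = 7.7e-05) and 202733_at fell by 1.5 (adjusted p = 7.9e-05), while 1555027_at gave 0.04 (adjusted p = 0.868). On 1568611_at the LP-1/Cfz arrays read 0.14, 0.64 and 0.45 and the LP-1 arrays 2.38, 2.27 and 2.49. The 20 measured genes nearest to P4HA2 held 0 that rose and 1 that fell, with a median of 0.01.

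**Figure D3:**
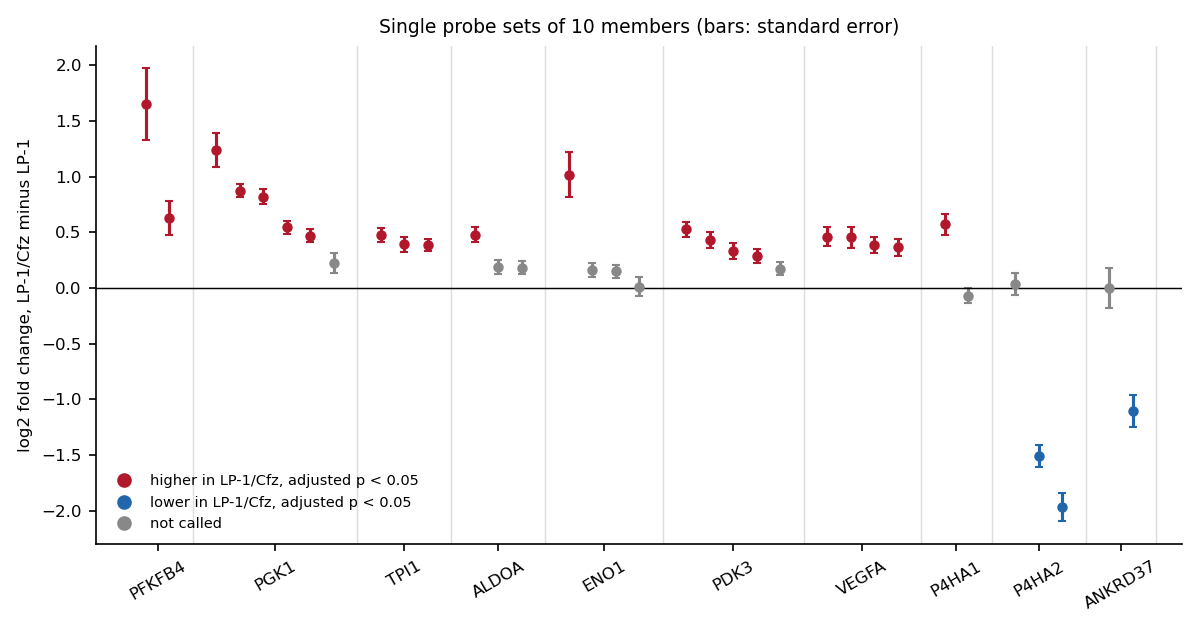
Log2 fold change of LP-1/Cfz minus LP-1 for every probe set of 10 genes with several probe sets, with the standard error as bars, red for a rise, blue for a fall and grey for no call over all 54613 probe sets. Probe sets of PGK1, TPI1 and VEGFA lie on the same side of 0, whereas those of P4HA2 range between -1.97 and 0.04 and those of ANKRD37 between -1.10 and 0.00.

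INSIG2, which holds the sterol sensor SCAP in the endoplasmic reticulum, rose by 0.58 (SE 0.150, adjusted p = 0.0346), with 0.17, 0.49 and 0.10 in LP-1/Cfz and -0.29, -0.62 and -0.07 in LP-1. ANKRD37, an ankyrin repeat protein raised by HIF, fell by 0.55 (SE 0.147, adjusted p = 0.0396), with 1.85, 2.11 and 1.79 in LP-1/Cfz and 2.60, 2.13 and 2.66 in LP-1. The highest LP-1/Cfz array and the lowest LP-1 array of ANKRD37 nearly touched. That fall rested on 242548_x_at, at -1.10 (adjusted p = 0.00265), while 227337_at gave 0.00 (adjusted p = 0.997). AK4, a mitochondrial adenylate kinase, did not pass as a gene at -0.31 (adjusted p = 0.0519; -0.39 and 0.0208 without LP-1 replicate 2), although 204348_s_at fell by 0.56 (adjusted p = 0.025) and 225342_at fell by 0.49 (adjusted p = 0.0221). These AK4 calls were each lost in 4 of the 6 fits with 1 array left out, the first without LP-1/Cfz replicate 1 or any LP-1 replicate and the other without LP-1/Cfz replicate 1 or 2 or LP-1 replicate 1 or 3, at adjusted p between 0.0555 and 0.0975.

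The largest changes that did not pass belonged to 2 HIF targets. BHLHE40, a transcriptional repressor of the circadian clock, was at 0.72, 1.09 and 0.77 in LP-1/Cfz, against 0.10, -0.74 and 0.49 in LP-1, a log2 fold change of 0.91 (SE 0.278, adjusted p = 0.0626). HILPDA, which promotes lipid droplets, was at 1.34, 1.61 and 1.16 in LP-1/Cfz, against 0.70, 0.00 and 0.97 in LP-1, a log2 fold change of 0.81 (SE 0.232, adjusted p = 0.0503). In both genes LP-1 replicate 2 was far below the other LP-1 arrays, and no arrays of the groups overlapped. Without LP-1 replicate 3 both passed, at 1.18 (adjusted p = 0.0238) for BHLHE40 and 1.02 (adjusted p = 0.0265) for HILPDA, and without LP-1 replicate 2 their changes were 0.57 and 0.53 (adjusted p = 0.0636 for each). MXI1, an antagonist of MYC, gave 0.31 (adjusted p = 0.068), NDRG1, a stress-induced gene, 0.32 (adjusted p = 0.169) and KDM3A, a histone demethylase, 0.19 (adjusted p = 0.189). MXI1 passed without LP-1 replicate 3, at 0.39 (adjusted p = 0.0469).

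The arrays of a group did not scatter around their mean independently from gene to gene. LP-1 replicate 2 was the lowest of the LP-1 arrays in 36 of the 42 genes, or 85.7%, against 37.6% of all genes, and LP-1 replicate 3 the highest in 29, or 69%, against 33.6%. The lowest place of LP-1 replicate 2 held for 21 of 24 genes of glycolysis and 15 of 18 of the hypoxia response, with median deviations from the group mean of -0.05 and -0.15. In LP-1/Cfz, replicate 2 was the highest array in 27 of the 42 genes, or 64.3%, against 36.1% of all genes, and in 15 of the 18 hypoxia genes. LP-1/Cfz replicate 3 was the lowest of its group in 25 of the 42 genes, or 59.5%, against 47% of all genes. The LP-1 group thus held an array that tended to the low end of these genes and an array that tended to the high end. In LP-1/Cfz, replicate 2 tended to the high end, while replicate 3 was often the lowest among all genes as well. Of the 18 hypoxia genes, LP-1/Cfz replicate 3 was the lowest in 10 and replicate 1 in 8. Without LP-1 replicate 2, 10 of the 42 genes rose and 5 fell, against 15 and 3 with all arrays. Without LP-1 replicate 1, 10 rose and 2 fell, and the counts were the same without LP-1/Cfz replicate 1. Without LP-1 replicate 3, 16 rose and 2 fell, and without LP-1/Cfz replicate 2, 12 rose and 3 fell. Leaving out any array also takes away data, so these counts alone do not show what 1 array contributes. What these arrays differ in was not tested, since the labels give no oxygen level, cell density or culture date.

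**Figure D4:**
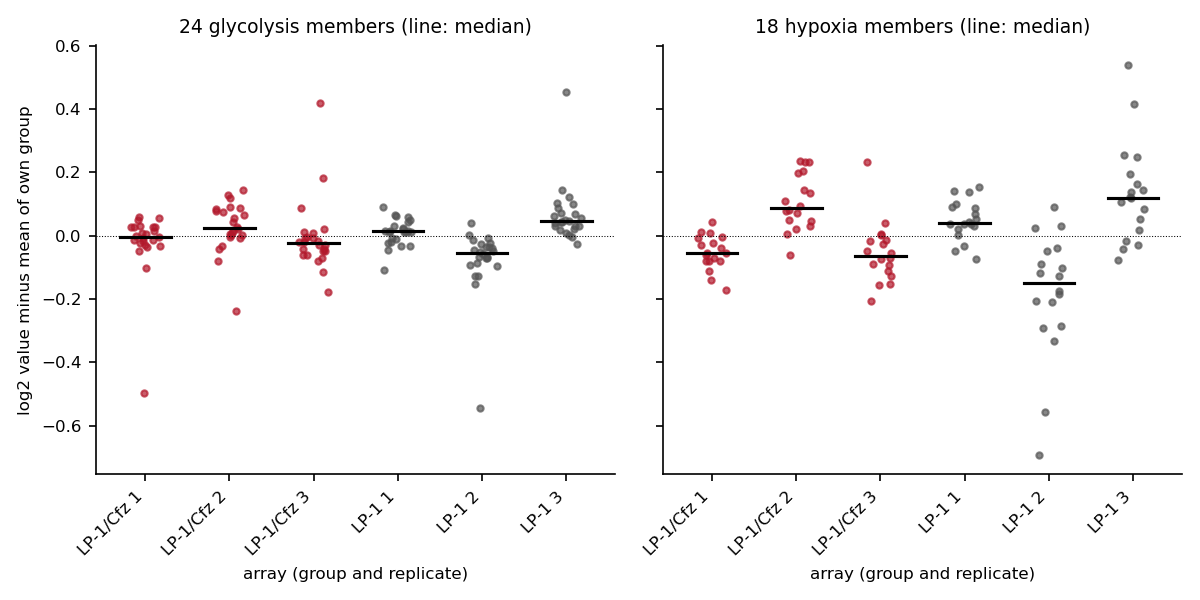
Deviation of each array from the mean of its own group on the log2 scale, 1 point for each of 24 glycolysis genes (left panel) and 18 hypoxia genes (right panel), with LP-1/Cfz arrays (red) left of LP-1 arrays (grey) and a line at the median. LP-1 replicate 2 lies below 0 for most genes, and its median over the hypoxia genes is -0.15, against 0.04 for LP-1 replicate 1 and 0.12 for LP-1 replicate 3.

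Of the 18 genes that passed, 12 did so whichever array was left out: ALDOA, ALDOC, TPI1, PGK1, ENO2, PFKFB4, PDK1, PDK3, VEGFA, ADM, P4HA2 and PLOD2. HK2, ENO1 and INSIG2 each lost their call without LP-1/Cfz replicate 1 or 2 or LP-1 replicate 1 or 2, at adjusted p of 0.0631 to 0.085 for HK2, 0.0503 to 0.0794 for ENO1 and 0.0667 to 0.0871 for INSIG2. LDHB lost it without LP-1/Cfz replicate 1 or any LP-1 replicate, at 0.0541 to 0.0758, and P4HA1 without any array but LP-1/Cfz replicate 3, at 0.0644 to 0.106. ANKRD37 lost its call without LP-1/Cfz replicate 1 or 3 or LP-1 replicate 1 or 3, at 0.107 to 0.127. Their directions were kept in all of these fits. Of the hypoxia genes, 3 in place of 5 therefore rose without LP-1/Cfz replicate 1 or 2 or LP-1 replicate 1 or 2. Of the 96 probe sets, 30 rose and 6 fell with all arrays, or 37.5%, against 11% of all probe sets, 4.25% higher and 6.76% lower. Their groups did not overlap on 55 probe sets with LP-1/Cfz above and 8 with LP-1/Cfz below, against 30.7% of all probe sets, 14.2% above and 16.5% below. Of the 36 calls, 22 held whichever array was left out, and without LP-1 replicate 1 the number that rose was 19.

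Glycolysis and the other HIF targets were set side by side. Of the 24 genes of glycolysis 10 rose and 1 fell, or 45.8%, with a median log2 fold change of 0.20, and of the 13 other HIF targets 5 rose and 2 fell, or 53.8%, with a median of 0.32. Among all genes 16.7% passed, with 6.72% higher and 10% lower. The shares that rose were 41.7% in glycolysis and 38.5% in the other HIF targets, and the shares that fell 4.17% and 15.4%. Both groups thus leaned upwards, and both held a gene with a fall of over 1 on the log2 scale, ENO2 and P4HA2. Whether the groups of genes differ was not tested.

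In a wider list of 88 genes of the same pathways, of which 82 were measured, rises and falls were equal in number. In that list 9 genes rose and 9 fell, 11% each, with a median log2 fold change of 0.03. Of all genes 6.72% rose and 10% fell. The rises lay mostly among 29 further hypoxia targets, of which 6 rose, or 20.7%, and 3 fell, or 10.3%. GBE1, the glycogen branching enzyme, had the largest, with 0.28, 0.39 and 0.37 in LP-1/Cfz, against -0.76, -0.79 and -0.70 in LP-1, a log2 fold change of 1.10 (SE 0.0535, adjusted p = 1.4e-05). BNIP3 and BNIP3L, receptors for the removal of mitochondria, rose by 0.74 (adjusted p = 0.0146) and 0.51 (adjusted p = 0.00644), DDIT4, an inhibitor of mTORC1, by 0.60 (adjusted p = 0.0269), and PLOD1, a lysyl hydroxylase, by 0.51 (adjusted p = 0.00146). On the other side, TFRC, the transferrin receptor, fell by 0.53 (adjusted p = 0.000912) and TMEM45A, a membrane protein, by 0.50 (adjusted p = 0.0399).

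The wider list also held genes of gluconeogenesis, of pyruvate entry to mitochondria and of the HIF pathway itself. Of 25 other genes of glycolysis and gluconeogenesis 3 rose and 1 fell, or 16%, a share near the 16.7% of all genes. ENO3, described above, G6PC3, a glucose 6-phosphatase subunit, at 0.36 (adjusted p = 0.00205), and PCK2, the mitochondrial carboxykinase that makes phosphoenolpyruvate, at 0.25 (adjusted p = 0.0348), rose. FBP1, the gluconeogenic phosphatase that reverses the phosphofructokinase step, fell by 0.42 (SE 0.0831, adjusted p = 0.0119). Of 14 genes of pyruvate entry to mitochondria 0 rose and 2 fell, or 14.3%, where 10% of all genes fell. These were PDP1, the phosphatase that switches pyruvate dehydrogenase back on, which fell by 0.61 (SE 0.0605, adjusted p = 0.000469), and its regulatory partner PDPR, which fell by 0.18 (adjusted p = 0.0499). PDP1 was at -0.53, -0.54 and -0.50 in LP-1/Cfz and 0.04, 0.19 and 0.02 in LP-1. It thus went the opposite way to the kinases PDK1 and PDK3. The kinases PDK2, at -0.03 (adjusted p = 0.793), and PDK4, at 0.07 (adjusted p = 0.571), did not pass, and their groups overlapped. Of 14 other components of the HIF pathway 0 rose and 3 fell, or 21.4%, and with 14 genes these shares rest on few calls. HIF1AN, the asparagine hydroxylase that blocks HIF from its coactivators, was at 0.03, -0.04 and -0.08 in LP-1/Cfz, against 0.40, 0.39 and 0.39 in LP-1, a log2 fold change of -0.43 (SE 0.0498, adjusted p = 0.00104). EGLN2, a prolyl hydroxylase of HIF, fell by 0.32 (adjusted p = 0.0231), and CREBBP, a coactivator of HIF and many other factors, fell by 0.23 (adjusted p = 0.0124); PDPR, EGLN2, CREBBP, ENO3, G6PC3 and PCK2 were named after their values had been seen.

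The genes nearest to those that passed gave no single picture. Besides those of PGK1, more neighbours were higher than lower at ALDOA, with 7 of 20 higher and 1 lower (median 0.11), at TPI1, with 5 and 2 (median 0.12), at LDHB, with 4 and 2 (median 0.13), and at ENO1, with 5 and 1 (median 0.06). Of the other genes that rose, ALDOC and INSIG2 each had 2 higher and 0 lower. ENO2, which fell, had 5 neighbours higher and 1 lower (median 0.11). It lies on chromosome 12, as do TPI1 and LDHB, and neighbours of genes on 1 chromosome can be the same genes. These counts are therefore not independent of each other. P4HA1, which rose, had 1 neighbour higher and 7 lower (median -0.13). For PFKFB4 the counts were 1 higher and 2 lower, with a median of 0.06, for ADM 1 and 2, with 0.02, and for VEGFA 1 and 1, with -0.03. PFKFB3, which did not pass, had 9 of its 20 neighbours lower and 0 higher, with a median of -0.16. The part of copy number or of a neighbourhood in these values was not tested.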

How the data were processed

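Total RNA of 3 LP-1/Cfz and 3 LP-1 samples was measured on 1 array each. The authors deposited log2 values. RMA is named, with no version, in the submitters' processing notes. The paper names GeneSpring where it tests the enrichment of Nrf2 binding targets. Values are relative to a reference for each probe set, not given in the sources used here. A filter on level and a count of detected genes were therefore not possible, and the number of arrays limits the precision. The labels give 4% serum and the paper a different content.

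Probe sets were named from the array's annotation: of 54613, 41091 name 1 gene, 1801 several and 11721 none, and 41037 of the 41091 matched RefSeq by gene identifier, with 0 symbols updated. A gene is the mean of its single-gene probe sets (more than 1 for 10523 of 19775 genes). Probe sets ending in _x_at or _s_at can share probes with near-identical genes.

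Differences, LP-1/Cfz minus LP-1, were tested with limma 3.58.1 under R 4.3.3 (lmFit and eBayes, no covariate, Benjamini-Hochberg adjustment over all genes or all probe sets, threshold 0.05), tested first on simulated data. Whether the triplicates were separate cultures is not stated, so that p-values reflect the spread of these samples alone, and it may be technical; with 3 against 3, a two-sided exact permutation test cannot go below 0.1. The genes and lists were chosen with earlier results of these data known. PFKFB4, PGK1 and all genes with a call were named, others where groups did not overlap or a step of the pathway held a call, and up to 5 of the wider list in each direction. Further genes of the wider list were added after their values had been seen, and not every gene of that list with a call is named. Neighbours are the 10 measured genes on each side in RefSeq order on GRCh38.p14, and promoter sequences are those of RefSeq on that assembly.

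Alternatives were quantile normalization, centring of arrays, leaving out the 25% of features with the smallest SD, array weights, a trended robust prior, the replicate number as a block, a minimum fold of 1.2 (treat), the study's fold of 1.7 with no p, other ways to combine probe sets, and leaving out each array.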

Additional observations from a re-analysis of the deposited data

How the results depend on the processing

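Quantile normalization left 1 hypoxia gene lower, against 2. Array weights gave 6 genes lower, 3 of them in glycolysis, against 3 and 1. Taking the probe set with the highest mean, or leaving out _x_at and _s_at probe sets, each left 1 hypoxia gene lower, and ANKRD37 then gave 0.0014 (adjusted p = 0.998) under both. P4HA1 gave -0.0673 (adjusted p = 0.549) with _x_at and _s_at probe sets left out. In these 3 cases only 1 probe set of the gene remained. Since the values keep no level, the probe set with the highest mean is not the most highly expressed one, and no call was judged by that choice.

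With a minimum fold of 1.2 (treat), 2 of the 42 genes rose and 2 fell, against 15 and 3 in the main test. In glycolysis 1 gene rose and 1 fell, and in hypoxia 1 rose and 1 fell. The gene of glycolysis that rose was PGK1, so that PFKFB4 lost its call. Of their probe sets 5 rose and 4 fell. In the wider list 1 gene rose and 2 fell, and 624 genes and 1312 probe sets passed in all. At a fold of 1.7 with no p, 3 of the 42 genes were higher and 2 lower. In glycolysis 1 gene was higher and 1 lower, and in hypoxia 2 were higher and 1 lower. The higher gene of glycolysis was PFKFB4 (2.21-fold), while PGK1 (1.62-fold) fell short of 1.7. The higher hypoxia genes were BHLHE40 (1.88-fold) and HILPDA (1.76-fold), which had not passed the main test. None of the 5 hypoxia genes that rose in the main test reached 1.7. Of their probe sets 8 were higher and 4 lower. In the wider list 1 gene was higher and 0 lower, and 339 genes and 867 probe sets passed in all. Both settings ask for a larger change, and fewer genes passed. The fold of 1.7 uses no p, so its genes are not all among those that passed the main test.

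Same-numbered arrays of the groups had correlations of deviations of -0.049, 0.126 and -0.006, so the replicate numbers were not taken to pair the samples. With the replicate number as a block, 11 of the 42 genes rose and 2 fell, 8 of those that rose in glycolysis and 3 in hypoxia, with 1 hypoxia gene lower. ENO1, LDHB, ANKRD37, P4HA1 and INSIG2 then had adjusted p between 0.0586 and 0.0744; 23 probe sets of the 42 genes rose and 5 fell, and 2641 genes and 4544 probe sets passed in all.

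With each array left out in turn, 10 to 16 of the 42 genes rose and 2 to 5 fell: 7 to 10 rose and 1 to 2 fell in glycolysis, and 3 to 7 rose and 1 to 3 fell in hypoxia. Their probe sets gave 19 to 31 higher and 4 to 6 lower, the wider list 7 to 10 higher and 5 to 8 lower, all genes 2080 to 3183 and all probe sets 3395 to 5355, with the low counts of all genes, 2100, 2157 and 2080, without LP-1 replicate 1, 2 and 3, and 5 lower genes of the wider list without LP-1 replicate 3. PFKFB3 passed without LP-1 replicate 2, at -0.32 (adjusted p = 0.0423), as did AK4, at -0.39 (adjusted p = 0.0208). The median of all genes was 0.0172, against 0.0137 after quantile normalization and 0.0078 with arrays centred.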
